A study of Mus musculus with 12 samples.

Results

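The genes described here encode enzymes that make drugs, hormones and other compounds water-soluble by attaching a sugar acid, a sulfate or glutathione, together with the carboxylesterases, which split esters. They were taken by symbol: Ugt1 or Ugt2, Sult, Gst of the alpha, kappa, mu, omega, pi, theta and zeta classes, and Ces followed by a number. Each gene was read by the probe set with the highest mean over all arrays. The choice gave 44 of the 12393 genes with a probe set of 1 symbol: 6 UDP-glucuronosyltransferases, 11 sulfotransferases, 18 glutathione S-transferases and 9 carboxylesterases. A further 6 probe sets of these families carried several symbols and were not used, and all 6 glucuronosyltransferases belonged to the Ugt2 group. The cells were bipotential mouse embryonic liver (BMEL) lines, derived from CBA/J x C57Bl/6J embryos at dpc14, progenitor lines able to form hepatocyte-like or bile duct-like cells. Lines 14B3 and 9A1 were each grown in Matrigel (a basement membrane gel), as aggregates and in basal culture, with 2 arrays for each of the 6 combinations, 12 in all. Matrigel cultures were labelled 10 days, except replicate 1 of 14B3, labelled 5 days. Aggregates were labelled 5 days and basal cultures carried no time, so that Matrigel and aggregates shared a labelled time only through that 1 array, and in 9A1 culture cannot be told apart from days.

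In liver and gut these enzymes work after, or in place of, oxidation by cytochromes P450. Glucuronosyltransferases sit in the endoplasmic reticulum and use UDP-glucuronic acid, sulfotransferases work in the cytosol with the sulfate donor PAPS, and glutathione S-transferases join glutathione to reactive compounds. Carboxylesterases of the Ces1 and Ces2 groups hydrolyse drug esters and also act on lipid esters. Many of the genes arose by tandem duplication and still lie side by side.

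Most of these genes were higher in aggregates than in basal culture, and fewer were higher in Matrigel. In limma's test with Benjamini-Hochberg adjustment over all genes at 0.05, 22 of the 44 were higher in Matrigel than in basal culture, where 14.1% of all genes were higher. In that limma test 0 were lower, where 14.3% of all genes were lower, and 0 were lower at an unadjusted p under 0.05 as well. In aggregates 33 were higher, against a background of 22.9%, and 1 was lower, against 23.4%. The median change over the 44 was 0.34 log2 units in Matrigel and 0.82 in aggregates, while the median over all genes was -0.04 in Matrigel and 0.10 in aggregates. Changes of at least 1 log2 unit were called higher for 16 members in Matrigel (background 3.97%) and for 19 in aggregates (background 7.08%), and lower for 0 in aggregates (background 8.54%). Both comparisons share the basal arrays. The 21 genes higher in both included every measured alpha and theta class glutathione S-transferase, while 12 were called in aggregates and not in Matrigel, and Ces2g was called higher in Matrigel and lower in aggregates. The remaining 10 were higher in neither. With a replicate block within each line, 23 were higher in Matrigel, with Gstp1 added (adjusted p = 0.0493), and 36 in aggregates, with Ces1c, Ces4a and Sult1a1 added (adjusted p = 0.046, 0.0251 and 0.012). The share of all genes called with the block was not counted, so its counts, here and below, have no background beside them. Among the genes called in Matrigel, Ces2g and Gstt2 had changes of opposite sign in the 2 lines.

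**Figure D1:**
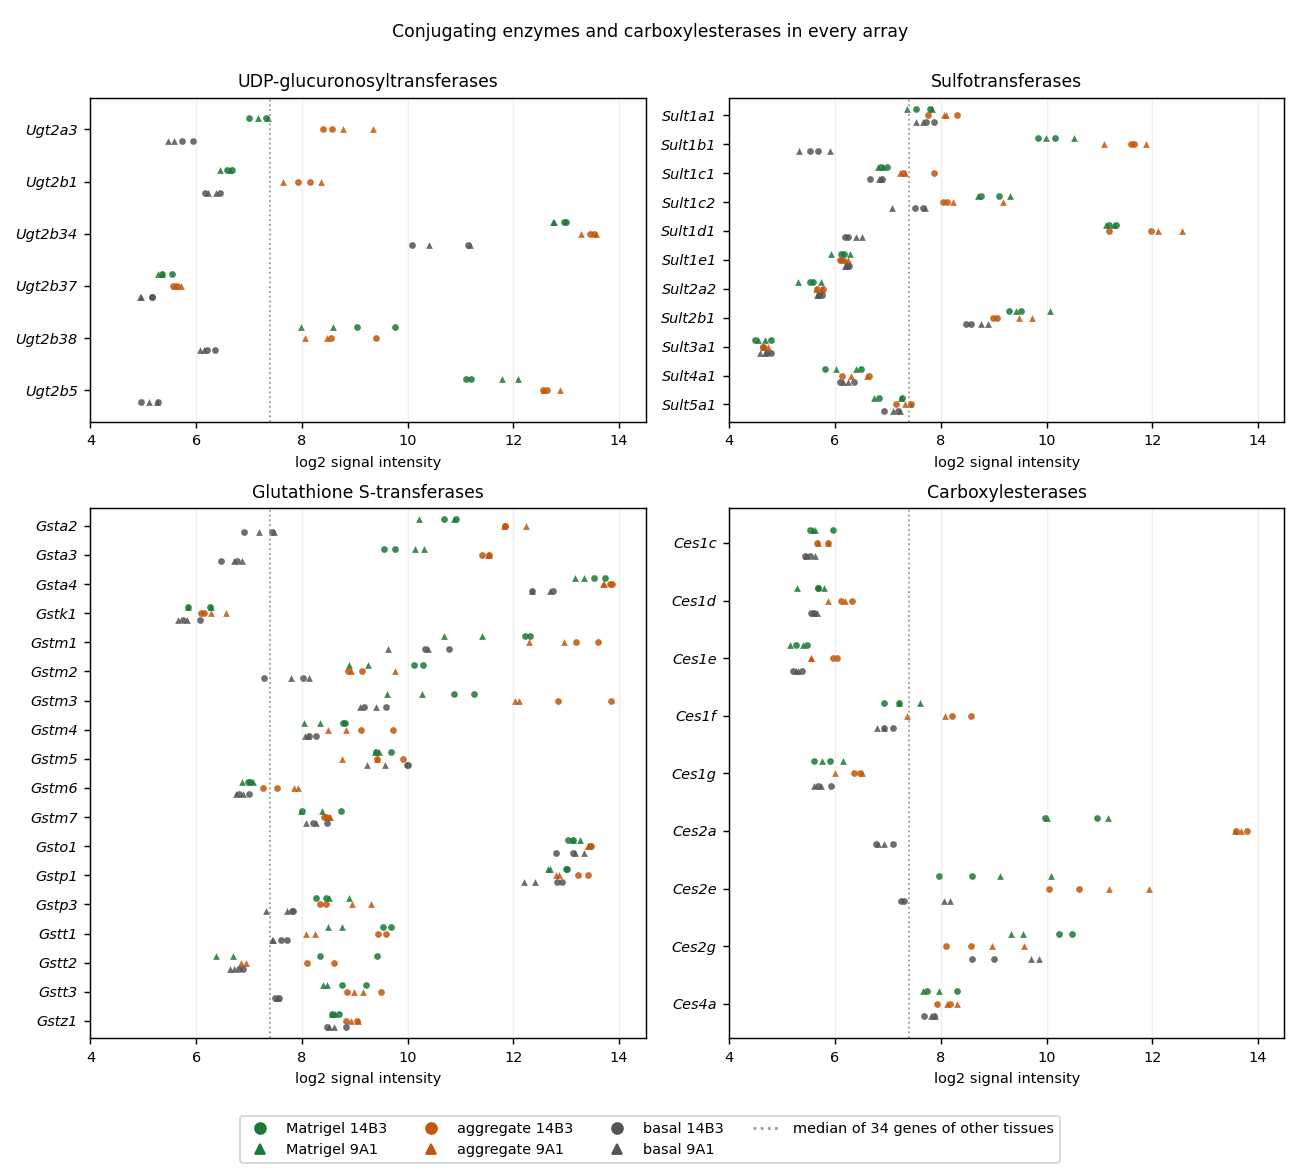
Log2 signal intensity of the 44 genes in each of the 12 arrays, with 1 row per gene and Matrigel, aggregate and basal arrays from top to bottom within a row; circles are line 14B3 and triangles line 9A1. The dotted line is the median, 7.40, of 34 genes of other tissues; 11 of the 44 genes had all 3 culture means at or under it.

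In the values that follow, log2 signal intensities stand in the order 14B3 replicates 1 and 2, then 9A1 replicates 1 and 2, and each change is a difference of log2 means over both lines with its standard error (n = 4 arrays per culture). The labels call the duplicates biological without describing separate cultures, and p-values therefore measure the spread among these arrays only, part or all of which may be technical. In whole cultures, fewer cells of a type and less RNA per cell cannot be told apart. The brightness of a probe set also depends on its probes, so levels are not compared between genes. The basal means of 24 members, Ugt2b5, Sult1b1, Ugt2a3, Ugt2b38, Sult1d1 and Ces2a among them, lay at or under the median level of the genes of other tissues, and 18 of the 24 were called higher in Matrigel or aggregates. The sizes of those 18 changes may depend on probe background in basal cells, which was not measured, and may understate the change.

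All 6 glucuronosyltransferases were higher in aggregates and 5 were higher in Matrigel, with Ugt2b1 the exception. Ugt2b5 had the largest measured change of the family. It read 11.20, 11.11, 11.79 and 12.09 in Matrigel, 12.56, 12.64, 12.58 and 12.88 in aggregates and 4.96, 5.28, 5.11 and 5.25 in basal culture. Its 3 cultures did not overlap, and aggregates were the highest. The change was 6.39 ± 0.12 in Matrigel (adjusted p = 1.87e-11) and 7.51 ± 0.12 in aggregates (adjusted p = 2.54e-12). Ugt2a3, whose human counterpart conjugates bile acids, read 7.31, 7.01, 7.16 and 7.35 in Matrigel, 8.57, 8.39, 8.79 and 9.34 in aggregates and 5.94, 5.73, 5.58 and 5.47 in basal culture. Again each culture stood apart, with changes of 1.53 ± 0.13 in Matrigel and 3.09 ± 0.13 in aggregates (adjusted p = 6.44e-06 and 5.57e-09). Ugt2b34 was bright in every culture, at 13.00, 12.95, 12.75 and 12.76 in Matrigel, 13.46, 13.53, 13.27 and 13.57 in aggregates and 10.09, 11.14, 10.41 and 11.18 in basal culture. Its Matrigel and aggregate arrays lay above every basal array, by 2.16 ± 0.21 in Matrigel and 2.75 ± 0.21 in aggregates (adjusted p = 1.69e-05 and 6.07e-07).

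Ugt2b38 differed from the 3 genes above in that its Matrigel mean was not below its aggregate mean. It read 9.75, 9.04, 8.58 and 7.98 in Matrigel, 9.40, 8.56, 8.48 and 8.06 in aggregates and 6.36, 6.20, 6.15 and 6.08 in basal culture. Matrigel and aggregate arrays overlapped each other and both lay above basal, by 2.64 ± 0.21 in Matrigel and 2.42 ± 0.21 in aggregates (adjusted p = 3e-06 and 1.58e-06). Ugt2b1 read 6.59, 6.68, 6.44 and 6.64 in Matrigel, 8.15, 7.93, 7.65 and 8.37 in aggregates and 6.17, 6.46, 6.22 and 6.37 in basal culture. Its aggregate arrays lay above all the others, by 1.72 ± 0.15 over basal (adjusted p = 1.5e-06), while the Matrigel change of 0.28 ± 0.15 did not pass (adjusted p = 0.202). Ugt2b37 was dim, below 6 in every array, and its changes of 0.32 in Matrigel and 0.57 in aggregates passed both tests. The Matrigel call was lost without Matrigel_14B3 replicate 2, basal_14B3 replicate 1 or basal_9A1 replicate 1 (adjusted p up to 0.0631).

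The sulfotransferases split sharply: 2 of 11 rose by more than 4 log2 units in both cultures, and 6 passed in neither culture, of which Sult1a1 passed in aggregates with the replicate block, with arrays centred on their median, with quantile normalisation, and without either Matrigel_9A1 array or aggregate_14B3 replicate 1 (adjusted p between 0.0116 and 0.0392). Sult1b1, which in humans sulfonates thyroid hormones, read 9.85, 10.15, 9.98 and 10.53 in Matrigel, 11.65, 11.61, 11.09 and 11.87 in aggregates and 5.53, 5.67, 5.31 and 5.91 in basal culture. Sult1d1, a mouse sulfotransferase of catecholamines, read 11.18, 11.32, 11.28 and 11.12 in Matrigel, 11.97, 11.17, 12.10 and 12.56 in aggregates and 6.25, 6.19, 6.39 and 6.52 in basal culture. Both genes lay above every basal array in both cultures. The Sult1b1 changes were 4.52 ± 0.19 in Matrigel and 5.95 ± 0.19 in aggregates (adjusted p = 1.31e-08 and 5.54e-10). Those of Sult1d1 were 4.89 ± 0.16 in Matrigel and 5.62 ± 0.16 in aggregates (adjusted p = 1.9e-09 and 2.95e-10), and its second probe set gave 4.13 in Matrigel and 5.40 in aggregates.

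The oestrogen sulfotransferase gene Sult1e1 is the next measured member along the chromosome after Sult1b1 and Sult1d1, and it stayed dim. It read 6.11, 6.17, 5.92 and 6.29 in Matrigel, 6.12, 6.10, 6.18 and 6.24 in aggregates and 6.23, 6.26, 6.20 and 6.20 in basal culture. The cultures overlapped, with changes of -0.10 ± 0.10 in Matrigel (adjusted p = 0.568) and -0.06 ± 0.10 in aggregates (adjusted p = 0.652). The 250 bases before each start are shown because these neighbours moved so differently. They are RefSeq sequences in GRCm38.p6, all on the minus strand, at chr5:87538196-87538445 for Sult1b1 (the first of 2 starts), chr5:87569007-87569256 for Sult1d1 and chr5:87591612-87591861 for Sult1e1. Capitals mark TGACCT, the core site of many nuclear receptors, in Sult1b1 and Sult1e1, and a shortened HNF1 motif in Sult1d1.
Sult1b1: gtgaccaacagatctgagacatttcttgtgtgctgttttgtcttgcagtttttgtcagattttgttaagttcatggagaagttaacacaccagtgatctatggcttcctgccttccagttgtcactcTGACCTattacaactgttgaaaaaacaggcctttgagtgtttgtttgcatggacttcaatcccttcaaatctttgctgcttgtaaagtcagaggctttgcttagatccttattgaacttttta
Sult1d1: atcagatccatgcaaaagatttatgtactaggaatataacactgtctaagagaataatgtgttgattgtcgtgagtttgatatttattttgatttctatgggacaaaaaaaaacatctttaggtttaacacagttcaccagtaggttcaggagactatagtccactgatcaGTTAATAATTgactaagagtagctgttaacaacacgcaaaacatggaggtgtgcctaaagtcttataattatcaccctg
Sult1e1: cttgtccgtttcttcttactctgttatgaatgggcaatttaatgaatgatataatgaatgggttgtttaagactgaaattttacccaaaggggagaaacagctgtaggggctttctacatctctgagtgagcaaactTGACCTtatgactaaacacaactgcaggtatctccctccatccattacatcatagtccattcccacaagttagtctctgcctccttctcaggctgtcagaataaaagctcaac
The receptor site began 123 bases before the first Sult1b1 start and 113 bases before that of Sult1e1. The window of the second Sult1b1 start held none of the motifs searched, and which start these cells use was not tested. The receptor site was found on either strand in 14% of all 32851 promoter windows and in 8 of the 47 windows of members (17%). The shortened HNF1 motif, chosen after the values were seen, lay 79 bases before the Sult1d1 start, in no other member window and in 0.371% of all windows. Windows were at hand for 38 members, and the 6 members without one were not searched. The full HNF1 palindrome, of which the shortened motif is a part, was in no member window and in 0.00913% of all windows, and the HNF4 motif CAAAGTCCA, also chosen later, was in no member window and in 0.384% of all. A match describes letters, not binding.

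The other sulfotransferases changed less. Sult1c2 read 8.76, 9.10, 8.70 and 9.30 in Matrigel, 8.13, 8.03, 9.17 and 8.23 in aggregates and 7.52, 7.66, 7.07 and 7.71 in basal culture. Each of its Matrigel and aggregate arrays lay above the basal ones, by 1.48 ± 0.21 in Matrigel and 0.90 ± 0.21 in aggregates (adjusted p = 0.000283 and 0.00391). Sult2b1, which sulfonates cholesterol, read 9.52, 9.30, 10.06 and 9.42 in Matrigel, 8.98, 9.07, 9.48 and 9.73 in aggregates and 8.47, 8.57, 8.90 and 8.76 in basal culture. It too was above basal in both cultures, by 0.90 ± 0.14 in Matrigel and 0.64 ± 0.14 in aggregates (adjusted p = 0.000418 and 0.002). Sult1c1 read 6.87, 6.99, 6.80 and 6.91 in Matrigel, 7.28, 7.88, 7.32 and 7.22 in aggregates and 6.88, 6.67, 6.86 and 6.84 in basal culture. It was called higher in aggregates, by 0.61 ± 0.13 (adjusted p = 0.00156), with a Matrigel change of 0.08 ± 0.13 (adjusted p = 0.75). Sult1a1, Sult2a2, Sult3a1, Sult4a1 and Sult5a1 passed in neither culture, with changes between -0.17 and 0.36, and all but Sult1a1 of these 5 had culture means under the median of the genes of other tissues.

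**Figure D2:**
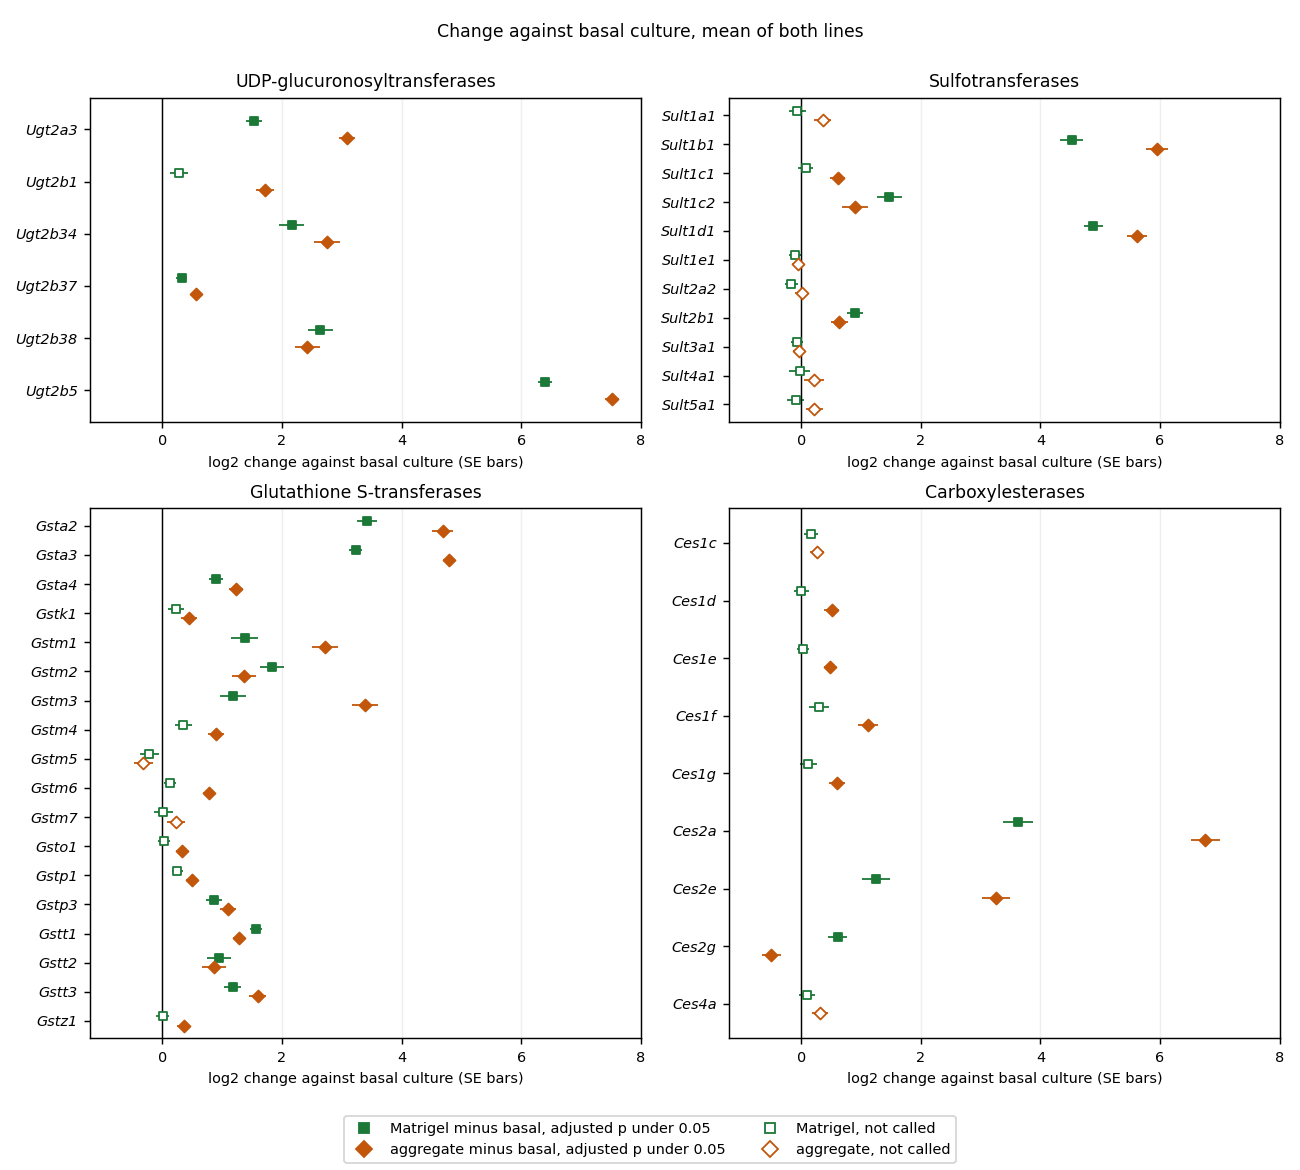
Log2 change against basal culture for each gene, averaged over both lines, for Matrigel (squares) and aggregates (diamonds) with standard error bars; filled symbols have an adjusted p under 0.05. Ugt2b5 stands farthest right at 6.39 in Matrigel and 7.51 in aggregates, and Ces2g is the one gene with filled symbols on opposite sides of 0.

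Among glutathione S-transferases 10 of 18 were higher in Matrigel and 16 of 18 in aggregates. The largest changes were in the alpha class. Gsta3, the mouse enzyme that detoxifies aflatoxin epoxide, read 9.75, 9.55, 10.14 and 10.32 in Matrigel, 11.40, 11.54, 11.53 and 11.52 in aggregates and 6.47, 6.77, 6.71 and 6.88 in basal culture. Each culture stood apart, and the changes were 3.23 ± 0.10 in Matrigel and 4.79 ± 0.10 in aggregates (adjusted p = 1.74e-09 and 4.15e-11). A second, dimmer Gsta3 probe set gave smaller changes, 1.28 in Matrigel and 3.08 in aggregates. Gsta2 read 10.68, 10.92, 10.21 and 10.88 in Matrigel, 11.84, 11.84, 11.82 and 12.24 in aggregates and 6.90, 7.44, 7.47 and 7.19 in basal culture. Its cultures did not overlap either, with changes of 3.42 ± 0.17 in Matrigel and 4.69 ± 0.17 in aggregates (adjusted p = 5.65e-08 and 1.52e-09). Gsta4, which conjugates the lipid peroxidation product hydroxynonenal, was already bright in basal culture and rose by 0.91 in Matrigel and 1.24 in aggregates. The Gsta3 window (RefSeq, GRCm38.p6, chr1:21240335-21240584, plus strand) is shown because it held TGACNNNGC, the core of the antioxidant response element, marked in capitals.
Gsta3: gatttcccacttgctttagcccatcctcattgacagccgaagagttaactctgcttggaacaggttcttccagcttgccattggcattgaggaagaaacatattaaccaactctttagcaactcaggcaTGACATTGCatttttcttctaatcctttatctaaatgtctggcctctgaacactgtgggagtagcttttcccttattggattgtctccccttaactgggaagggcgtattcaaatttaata
The core lay 121 bases before the start. It was found on either strand in 10.2% of all windows and in 3 of the 47 member windows (6.38%), of which the other two, Gstm5 and Gstm7, passed in neither culture.

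The 7 mu class genes ranged from no call to a rise of more than 3 log2 units. Gstm3 read 11.26, 10.88, 9.61 and 10.27 in Matrigel, 12.84, 13.84, 12.10 and 12.04 in aggregates and 9.17, 9.59, 9.10 and 9.41 in basal culture. Its aggregate arrays lay above all Matrigel arrays and those above all basal arrays, with changes of 1.19 ± 0.22 in Matrigel and 3.39 ± 0.22 in aggregates (adjusted p = 0.00144 and 1.22e-07). A second Gstm3 probe set gave 0.32 in Matrigel and 2.60 in aggregates. Gstm1 read 12.31, 12.22, 10.69 and 11.41 in Matrigel, 13.18, 13.60, 12.95 and 12.29 in aggregates and 10.34, 10.77, 9.63 and 10.39 in basal culture. Matrigel arrays of 9A1 overlapped the basal arrays of 14B3, and the changes were 1.38 ± 0.22 in Matrigel and 2.72 ± 0.22 in aggregates (adjusted p = 0.00058 and 7.98e-07). Gstm2 read 10.12, 10.29, 8.90 and 9.25 in Matrigel, 8.87, 9.14, 9.76 and 8.93 in aggregates and 7.28, 8.02, 7.79 and 8.14 in basal culture. Of the mu class genes called in both cultures it alone had the higher mean in Matrigel, with changes of 1.83 ± 0.20 in Matrigel and 1.37 ± 0.20 in aggregates (adjusted p = 3.75e-05 and 0.000123). Gstm4 and Gstm6 were called in aggregates and not in Matrigel, with aggregate changes of 0.90 and 0.78 and Matrigel changes of 0.35 and 0.12. Gstm5 and Gstm7 passed in neither culture, although a dimmer Gstm7 probe set gave 0.50 in Matrigel and 0.78 in aggregates. The probe sets used for Gstm1, Gstm3, Ugt2b34 and Ces1f have names ending in x_at or s_at, which mark probes that may also bind related transcripts, so these values may hold signal from other members.

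The 3 theta class genes, Gstt1, Gstt2 and Gstt3, passed in both cultures, with Matrigel changes of 1.56, 0.95 and 1.18 and aggregate changes of 1.29, 0.86 and 1.60. Gstp3 rose by 0.87 in Matrigel and 1.10 in aggregates. The remaining members changed less: Gstz1, an enzyme of tyrosine breakdown, rose by 0.36 in aggregates, Gsto1 by 0.32, Gstp1 by 0.49 and Gstk1, found in mitochondria and peroxisomes, by 0.44, and none of these 4 passed in Matrigel. Gstp1 was called there with the replicate block, with probe sets averaged or among genes above the median level (adjusted p between 0.0425 and 0.0493). The Gstk1 call was lost without aggregate_9A1 replicate 1, basal_14B3 replicate 1 or basal_9A1 replicate 1 (adjusted p up to 0.0844). The Gsto1 call was lost without aggregate_9A1 replicate 2, basal_14B3 replicate 1 or basal_9A1 replicate 1, or with its probe sets averaged (adjusted p up to 0.101). The Gstz1 call was lost without aggregate_14B3 replicate 1, aggregate_9A1 replicate 2, basal_14B3 replicate 2 or basal_9A1 replicate 2 (adjusted p up to 0.08).

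The carboxylesterases differed by group. All 3 Ces2 genes were higher in Matrigel, 2 of them were higher in aggregates and Ces2g was lower there. The 5 Ces1 genes did not pass in Matrigel, and 4 passed in aggregates with changes of 0.48 to 1.12. Ces2a read 9.98, 10.95, 10.01 and 11.15 in Matrigel, 13.58, 13.80, 13.67 and 13.56 in aggregates and 6.77, 7.10, 6.81 and 6.92 in basal culture. Its cultures were far apart, with changes of 3.62 ± 0.24 in Matrigel and 6.75 ± 0.24 in aggregates (adjusted p = 6.88e-07 and 1.39e-09). Ces2e read 7.97, 8.59, 9.12 and 10.08 in Matrigel, 10.61, 10.05, 11.18 and 11.94 in aggregates and 7.30, 7.25, 8.06 and 8.17 in basal culture. One Matrigel array of 14B3 lay below the 9A1 basal arrays, and the changes were 1.25 ± 0.23 in Matrigel and 3.25 ± 0.23 in aggregates (adjusted p = 0.0017 and 3.17e-07).

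Ces2g, the next measured gene along the chromosome after Ces2a and Ces2e, did not follow them. It read 10.49, 10.24, 9.56 and 9.32 in Matrigel, 8.56, 8.09, 9.57 and 8.96 in aggregates and 8.58, 9.01, 9.71 and 9.87 in basal culture. Over both lines the change was 0.61 ± 0.16 in Matrigel (adjusted p = 0.0141) and -0.50 ± 0.16 in aggregates (adjusted p = 0.0244), with overlapping arrays in both comparisons. The Matrigel call was lost without Matrigel_9A1 replicate 1, basal_14B3 replicate 1 or basal_9A1 replicate 1 (adjusted p up to 0.0692). The aggregate call was lost without replicate 2 of aggregate_14B3, aggregate_9A1, basal_14B3 or basal_9A1 (adjusted p up to 0.11). The promoter windows of Ces2a (chr8:104733753-104734002, plus strand) and Ces2g (chr8:104961468-104961717, plus strand), from RefSeq in GRCm38.p6, are shown for this contrast, with the receptor site in capitals where it occurs.
Ces2a: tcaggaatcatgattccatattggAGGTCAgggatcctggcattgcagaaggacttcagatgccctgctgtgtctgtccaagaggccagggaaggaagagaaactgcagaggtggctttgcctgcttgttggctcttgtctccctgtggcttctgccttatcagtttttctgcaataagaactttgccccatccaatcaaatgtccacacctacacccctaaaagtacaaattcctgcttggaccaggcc
Ces2g: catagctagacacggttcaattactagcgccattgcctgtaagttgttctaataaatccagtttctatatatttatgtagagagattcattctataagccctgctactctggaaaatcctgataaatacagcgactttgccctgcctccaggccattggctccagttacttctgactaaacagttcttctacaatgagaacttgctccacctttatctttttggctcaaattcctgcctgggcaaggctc
In Ces2a the receptor site stood on the opposite strand, read there as AGGTCA, 226 bases before the start, and none of the 5 motifs searched was in the Ces2g window. The site was in 14% of all windows and also in that of Ces4a, which passed in neither culture. Ces2e, which rose with Ces2a, was not among the members with a match. Whether the site bears on these changes was not tested.

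The Ces1 genes were mostly dim. Ces1f, a carboxylesterase of mouse liver, read 6.92, 7.22, 7.20 and 7.60 in Matrigel, 8.58, 8.22, 8.07 and 7.36 in aggregates and 7.10, 6.92, 6.79 and 6.93 in basal culture. Its aggregate arrays lay above the basal ones, by 1.12 ± 0.16 (adjusted p = 0.00011), and the Matrigel change was 0.30 ± 0.16 (adjusted p = 0.219). Ces1g read 5.60, 5.91, 5.76 and 6.16 in Matrigel, 6.48, 6.35, 6.51 and 6.00 in aggregates and 5.93, 5.68, 5.60 and 5.74 in basal culture. It was higher in aggregates by 0.60 ± 0.14 (adjusted p = 0.00378), with 0.12 ± 0.14 in Matrigel (adjusted p = 0.649). Ces1d and Ces1e rose by 0.52 and 0.48 in aggregates, while Ces1c and Ces4a, at 0.26 and 0.31, passed in neither culture. With the replicate block both were called higher in aggregates, and Ces4a also with either Matrigel_14B3 array left out or with quantile normalisation (adjusted p = 0.0364 and 0.0445).

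**Figure D3:**
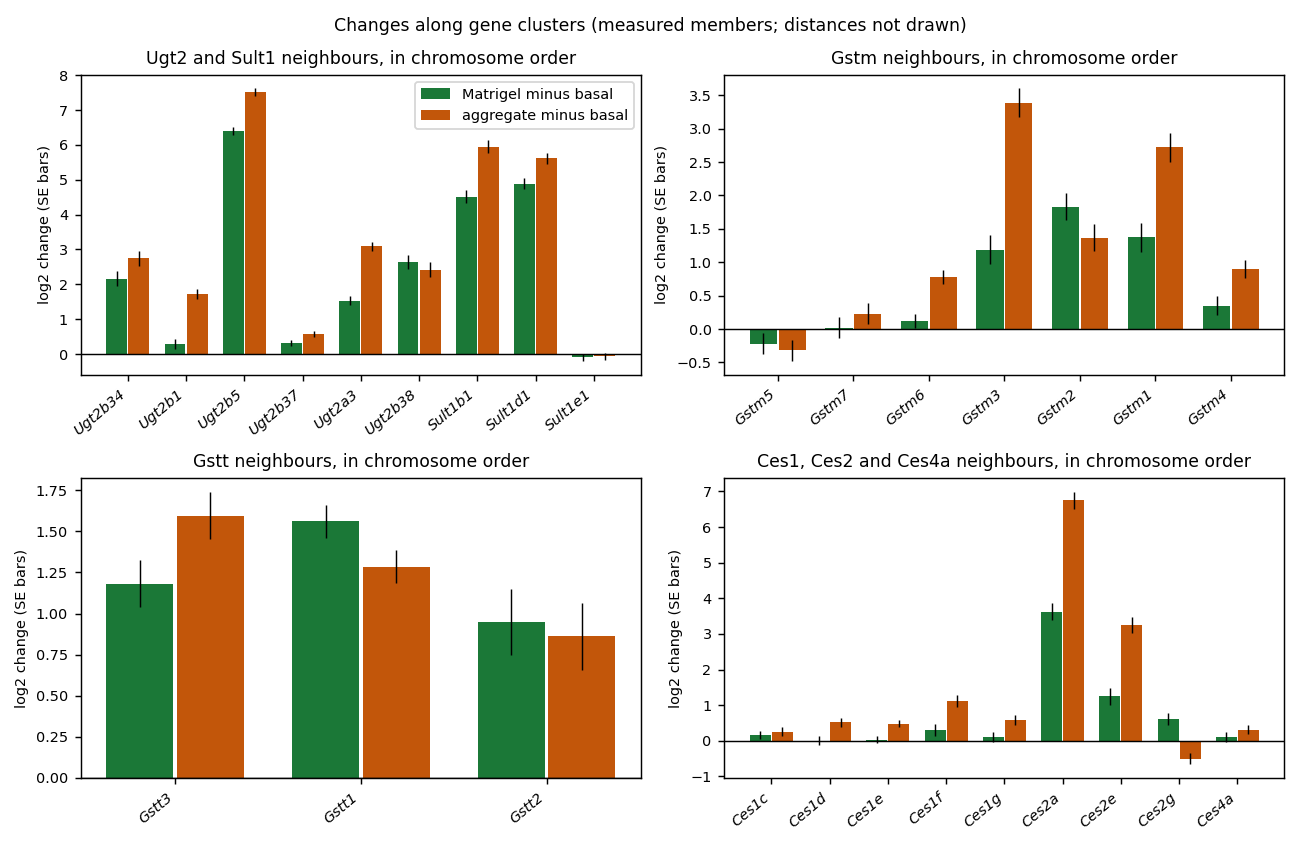
Log2 change against basal culture, with standard error bars, for members that lie on the same chromosome, in chromosome order without distances; green bars are Matrigel and orange bars aggregates. Next to Sult1b1 and Sult1d1, both above 4, Sult1e1 stays near 0, and Ces2g follows Ces2a and Ces2e with a negative aggregate bar of -0.50.

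Dim members need reading against the arrays' low range. Over 34 genes of kidney, lung, brain, germ cells and other tissues, mean log2 intensity ran from 4.50 to 9.23 with a median of 7.40. A basal mean no higher than the brightest of these, Mbp, was found for 36 of the 44 members. Mbp was itself called lower in both cultures, and the median level over all genes was 8.46. The count of 36 therefore does not set the members apart as dim. The 11 members with every culture mean at or under 7.40 included 5 called higher in aggregates (Ces1d, Ces1e, Ces1g, Gstk1 and Ugt2b37) and 1 in Matrigel. On the array 3429 of 12393 genes had a mean over all arrays at or under 7.40, a looser rule than the one for the 11 members. Of the 3429, 11.9% were called higher and 6.24% lower in aggregates, with a median change of 0.12. In Matrigel 4.23% were called higher and 4.4% lower.

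Matrigel was then set against aggregates directly. Of the 44 members 1, Ces2g, was higher in Matrigel (background 13.9%) and 21 were lower (background 12.7%), and 36 had the lower mean in Matrigel. That is 81.8% of members, where 63.4% of all genes had the lower mean in Matrigel. Lower by at least 1 log2 unit were 10 (background 1.51%). The 21 lower genes were 3 glucuronosyltransferases, 4 sulfotransferases, 8 glutathione S-transferases and 6 carboxylesterases. Ces2a was lowest, at -3.13 ± 0.24 (adjusted p = 6.55e-06), followed by Gstm3 at -2.20 ± 0.22 (adjusted p = 2.8e-05) and Ces2e at -2.00 ± 0.23 (adjusted p = 8.78e-05). Ugt2a3, Gsta3, Ugt2b1, Sult1b1, Gstm1, Gsta2 and Ugt2b5 were lower by 1.12 to 1.56 log2 units. Ces2g was higher by 1.11 ± 0.16 (adjusted p = 0.000412). At equal labelled days in 14B3, the 1 Matrigel array read 9.98 for Ces2a, 9.75 for Gsta3 and 10.49 for Ces2g. The aggregate arrays read 13.58 and 13.80 for Ces2a, 11.40 and 11.54 for Gsta3, and 8.56 and 8.09 for Ces2g. Among the 21 members called lower, Sult1d1 alone did not read below both aggregate arrays in this comparison. It read 11.18 in the Matrigel array, against 11.97 and 11.17 in the aggregate arrays. With 1 Matrigel array these differences were not tested. With a replicate block within each line, 2 were higher, the second being Gstt1, and 26 were lower, with Gsta4, Gstt3, Sult5a1, Ugt2b34 and Ugt2b37 added (adjusted p = 0.0465, 0.0175, 0.0247, 0.0254 and 0.0331). The call of Ces1g (-0.48) was lost without replicate 1 of Matrigel_14B3, Matrigel_9A1, aggregate_14B3 or aggregate_9A1 (adjusted p up to 0.106). That of Gstm4 (-0.55) was lost without replicate 1 of Matrigel_9A1 or aggregate_9A1 (adjusted p up to 0.0566), and that of Gstz1 (-0.36) without Matrigel_14B3 replicate 2, Matrigel_9A1 replicate 1, aggregate_14B3 replicate 1 or aggregate_9A1 replicate 2 (adjusted p up to 0.101). Gsto1 (-0.30) lost its call without any Matrigel, aggregate or 9A1 basal array, and with its probe sets averaged (adjusted p up to 0.122). Sult1a1 (-0.42) lost it without any basal array, replicate 1 of either Matrigel group, aggregate_14B3 replicate 2 or either aggregate_9A1 array (adjusted p up to 0.177).

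Most members that differed between the lines were glutathione S-transferases. Averaged over cultures, 7 members were higher in 14B3 (background 2.57%), 6 of them glutathione S-transferases, and 1 was lower (background 3.45%). Gstt2 was the 1 member higher by at least 1 log2 unit (background 0.395%). It read 9.43, 8.34, 6.37 and 6.70 in Matrigel, 8.61, 8.09, 6.84 and 6.95 in aggregates and 6.80, 6.89, 6.64 and 6.71 in basal culture. The 14B3 arrays were above the 9A1 arrays in each culture, least so in basal culture. Averaged over cultures, the line difference was 1.32 ± 0.17 (adjusted p = 0.000495). In Matrigel the lines parted: Gstt2 changed by 2.04 ± 0.29 in 14B3 and by -0.14 ± 0.29 in 9A1, a difference of 2.17 ± 0.40 (adjusted p = 0.0329). In aggregates it changed by 1.50 ± 0.29 in 14B3 and 0.22 ± 0.29 in 9A1, and that difference did not pass (adjusted p = 0.358). Its Matrigel replicates in 14B3 carried different culture times, 5 days for the brighter and 10 days for the dimmer.

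Its neighbour Gstt1 read 9.69, 9.53, 8.49 and 8.75 in Matrigel, 9.44, 9.59, 8.25 and 8.08 in aggregates and 7.61, 7.72, 7.43 and 7.46 in basal culture. It was higher in 14B3 by 0.85 ± 0.08 (adjusted p = 5.99e-05). Its arrays in 14B3 lay above those in 9A1 within each culture, least so in basal culture. Gstt1 rose in aggregates by 1.85 ± 0.14 in 14B3 and 0.72 ± 0.14 in 9A1, a difference of 1.13 ± 0.20 (adjusted p = 0.0333), the 1 member called in that limma comparison (background 0.169% higher and 0.299% lower; 5 higher and 3 lower at an unadjusted p under 0.05). Ces2g and Gstt2 were the 2 members called for the Matrigel response (background 0.339% higher and 0.347% lower; 6 higher and 2 lower at an unadjusted p under 0.05). Ces2g changed in Matrigel by 1.57 ± 0.23 in 14B3 and -0.35 ± 0.23 in 9A1, a difference of 1.92 ± 0.32 (adjusted p = 0.0194). For Ces2g the 14B3 minus 9A1 difference was 0.92 in Matrigel, -0.94 in aggregates and -0.99 in basal culture.

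These 3 calls rest on few arrays. The Gstt2 difference was lost without either Matrigel_9A1 replicate or any of the 4 basal arrays (adjusted p up to 0.135). That of Ces2g was lost without Matrigel_14B3 replicate 1, Matrigel_9A1 replicate 2, basal_14B3 replicate 1 or either basal_9A1 replicate (adjusted p up to 0.0952). That of Gstt1 was lost without either aggregate_14B3 replicate, aggregate_9A1 replicate 2 or any of the 4 basal arrays (adjusted p up to 0.153).

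Gstm3, Gstm1, Ugt2b38, Gstm4 and Gstp1 were the other members higher in 14B3, by 0.84 ± 0.18, 0.84 ± 0.18, 0.66 ± 0.17, 0.49 ± 0.11 and 0.46 ± 0.08 (adjusted p = 0.0146, 0.0158, 0.0445, 0.0254 and 0.00324). For all but Gstp1 the lines lay closest together in basal culture. There the 14B3 and 9A1 means were 9.38 and 9.25 for Gstm3 and 10.56 and 10.01 for Gstm1. They were 6.28 and 6.12 for Ugt2b38, 8.20 and 8.09 for Gstm4, and 12.87 and 12.31 for Gstp1. The Gstm3 call was lost without basal_14B3 replicate 2 (adjusted p = 0.0522) and the Gstm1 call without that array or aggregate_14B3 replicate 2 (adjusted p up to 0.0549). Gstm4 lost its call without any basal array, either Matrigel_14B3 array, Matrigel_9A1 replicate 1, or replicate 2 of either aggregate group (adjusted p up to 0.0785). Ugt2b38 lost its call without any basal array, Matrigel_14B3 replicate 1, Matrigel_9A1 replicate 2, aggregate_14B3 replicate 1 or aggregate_9A1 replicate 2, and with arrays centred on their median (adjusted p up to 0.115). Ces2e ran the other way, with 14B3 below 9A1 in each culture and a difference of -1.13 ± 0.19 (adjusted p = 0.00381). With the replicate block, 3 members were lower in 14B3, Sult2b1 and Ugt2b5 being added.

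**Figure D4:**
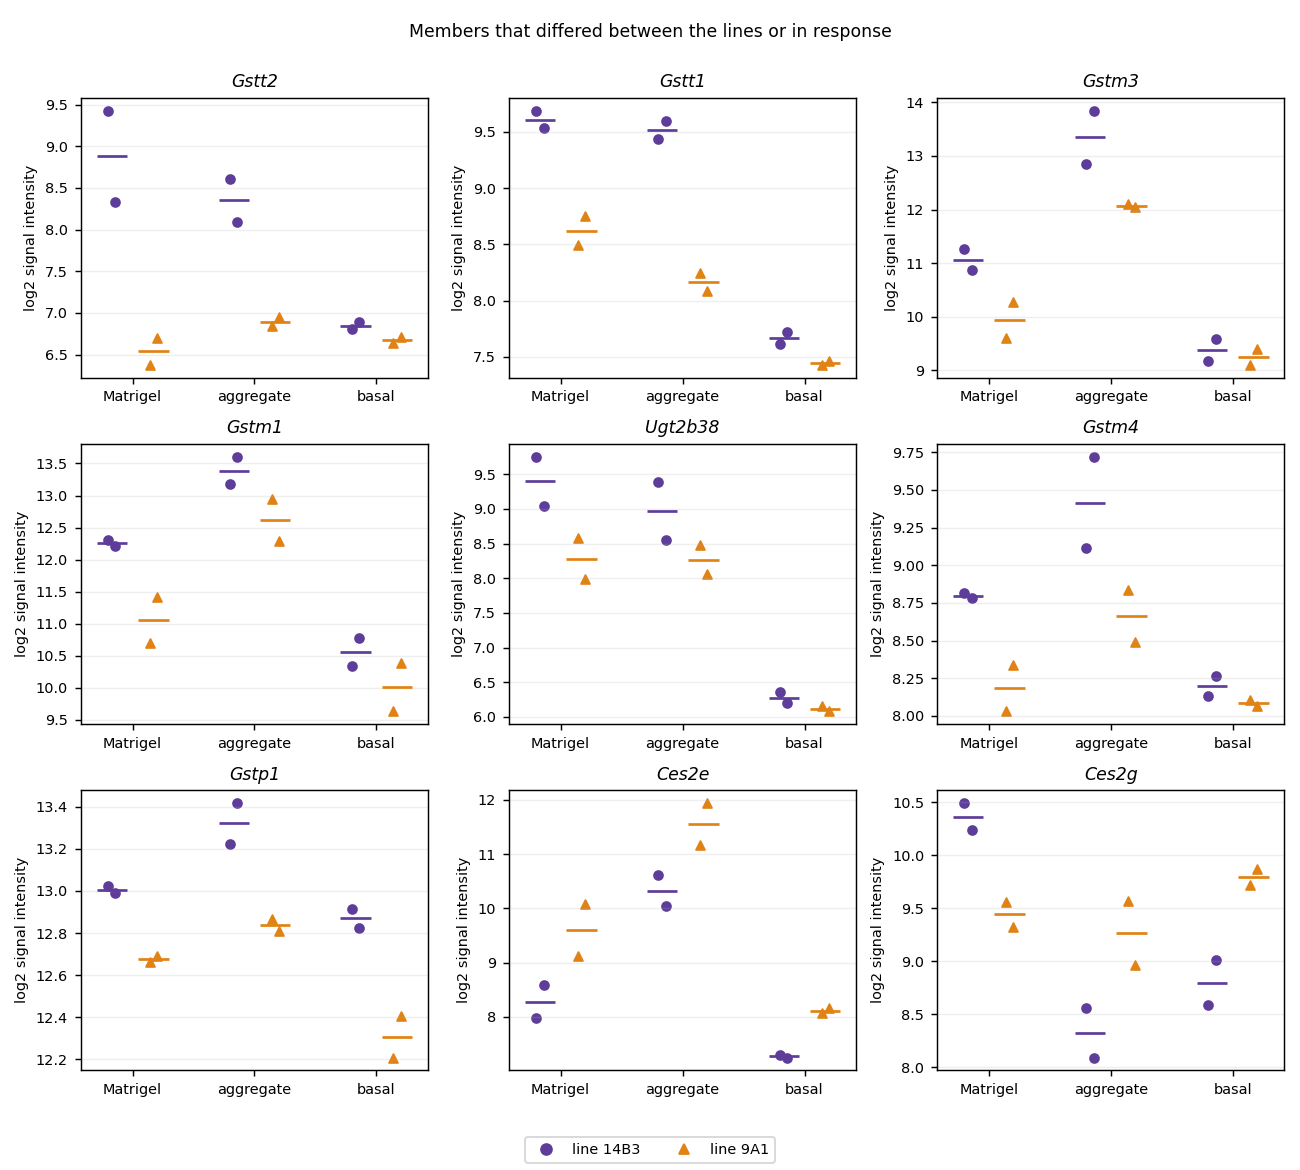
Log2 signal intensity by culture for the 8 genes that differed between lines and for Ces2g, whose Matrigel response differed; circles are line 14B3, triangles line 9A1, 2 arrays each, and bars are their means. Scales differ between panels. Gstt2 in Matrigel reads 9.43, 8.34, 6.37 and 6.70, the first pair from 14B3 and the second from 9A1.

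Genes that supply or use the same pathways mostly moved the same way. Of 46 such genes 38 were measured. In Matrigel 21 were higher (background 14.1%) and 3 lower (background 14.3%). In aggregates 27 were higher (background 22.9%) and 5 lower (background 23.4%). Medians were 0.53 in Matrigel and 0.85 in aggregates, against -0.04 and 0.10 over all genes. Gsr, Slc7a11 and Nnmt were lower in both cultures, and Gusb and Ahr in aggregates. Hnf4a and Cdx2 of the 38 also stand among the cell type markers. Papss2, which makes the sulfate donor, changed by 3.50 ± 0.13 in Matrigel and 4.09 ± 0.13 in aggregates (adjusted p = 4.66e-09 and 5.23e-10), while its relative Papss1 did not pass (-0.06 in Matrigel and -0.30 in aggregates). For glucuronidation, Ugp2, which makes UDP-glucose, rose by 1.56 in Matrigel and 2.16 in aggregates, and Ugdh, which oxidises it to UDP-glucuronic acid, by 0.43 in Matrigel and 0.84 in aggregates. Gss, which completes glutathione, rose by 1.13 in Matrigel and 1.48 in aggregates, whereas glutathione reductase Gsr was lower, at -0.57 in Matrigel and -0.46 in aggregates. The cystine carrier Slc7a11 was lower too, at -0.66 in Matrigel and -0.58 in aggregates. The conjugate exporter Abcc2 rose by 3.09 in Matrigel and 4.58 in aggregates, and the esterase Aadac by 2.53 in Matrigel and 4.01 in aggregates.

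Most hepatocyte and enterocyte markers were higher in both cultures, and most markers of the other cell types were not. Over all genes 14.1% were higher in Matrigel and 22.9% in aggregates. Of 9 measured hepatocyte markers 8 were higher in Matrigel and 9 in aggregates, and the log2 of their summed intensity was 15.21 to 15.51 in Matrigel, 15.50 to 16.14 in aggregates and 12.40 to 13.04 in basal culture. Of 9 enterocyte markers 6 were higher in Matrigel and 8 in aggregates, with sums of 14.77 to 15.12 in Matrigel, 15.37 to 15.81 in aggregates and 11.82 to 12.47 in basal culture. Of 6 bile duct markers 2 were higher in Matrigel, and 2 were higher and 2 lower in aggregates, with overlapping sums of 14.18 to 14.48 in Matrigel, 14.02 to 14.36 in aggregates and 13.94 to 14.31 in basal culture. Of 8 haematopoietic markers 2 were higher in Matrigel and 3 in aggregates, with sums of 10.87 to 11.48 in Matrigel, 11.12 to 12.23 in aggregates and 10.65 to 10.95 in basal culture. Of 8 endothelial markers Cdh5 was higher in Matrigel, with sums of 9.60 to 10.45 in Matrigel, 9.96 to 10.16 in aggregates and 9.78 to 10.16 in basal culture. Of 8 stellate markers Acta2 was higher in Matrigel and Reln and Gfap in aggregates (Gfap also stands among the genes of other tissues), with sums of 10.46 to 11.67 in Matrigel, 10.52 to 10.83 in aggregates and 10.43 to 10.61 in basal culture. No marker was read as absent, since array signals have no true 0, and the part of these cell types in the changes was not tested.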

How the data were processed

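Total RNA was labelled with biotin and hybridised to 12 one-colour Affymetrix mouse 430A arrays. The authors summarised each probe set to a signal intensity with RMA in R 2.3.1, per the submitters' processing notes. Deposited intensities range from 14.37 to 27318, a linear scale where RMA output is usually log2, and were log2-transformed for every test. Array medians were 267.6 to 281.1, and the number of arrays limits the precision.

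Probe sets were named by GEO's platform annotation, which can be old. Of 22690, 20380 had 1 symbol and 691 several. All 44 symbols of the genes described matched RefSeq. The 44 genes had 55 probe sets, and 8 genes had more than 1.

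A model with 1 mean per group (6 groups) was fitted in limma 3.58.1 (lmFit, eBayes; R 4.3.3); it left 6 residual degrees of freedom, and the median residual SD was 0.170. Tests were two-sided, adjusted by Benjamini-Hochberg over 12393 genes at 0.05, with no filter on dim genes. The fit was tested on simulated data. Promoter windows came from RefSeq (GRCm38.p6), trimmed to the 250 bases before the start. Genes given array by array were up to 5 per family and direction with the largest called changes against basal, up to 3 per family for the lines, and those called for a difference in response; Sult1e1 was added after its values were seen. The members and lists were chosen with earlier results of these data known.

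Replicate numbers deviated together in all 15 pairs of groups (r of 0.101 to 0.644), so they were taken to pair the samples. A replicate block within each line was therefore run as an alternative. Background shares come from the fit without the block. Counts, standard errors and p-values come from the fit without the block unless an alternative is named. Other alternatives were leaving out each array, median centring, quantile normalisation, averaging the probe sets of a gene, genes above the median level, and a change of at least 1 log2 unit. No 2 arrays held the same values. Python 3.11.15 with matplotlib 3.10.9 made the figures.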

Additional observations from a re-analysis of the deposited data

Results flagged for a closer look

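In 3 of 132 groups of 4 arrays, 1 array stood apart from the other 3 by more than Dixon's critical value. For 4 arrays drawn from the same population, chance alone does so in about 1 group in 20. Each group here pooled 2 arrays of each line, so that rate need not hold. Gsta2 in aggregates read 12.24 in aggregate_9A1 replicate 2, where the other arrays read 11.82 to 11.84. Sult1c1 in aggregates read 7.88 in aggregate_14B3 replicate 2, against 7.22 to 7.32. Sult3a1 in aggregates read 4.72 in aggregate_9A1 replicate 2, against 4.63 to 4.64.

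The response to culture differed between lines for 3 genes. The Gstt1 aggregate response was 1.13 log2 units larger in 14B3 than in 9A1. The Matrigel response was larger in 14B3 by 1.92 for Ces2g and by 2.17 for Gstt2.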

How the results depend on the processing

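Of 89 called gene values, 71 kept their call under every alternative other than the rule of at least 1 log2 unit, 18 lost it under at least 1, and none changed direction; 22 of 175 uncalled values were called under at least 1. Of 12 counts of members called, those that moved by more than 1.5 times were as follows. For aggregates against basal culture, 18 were higher among genes above the median level, where fewer members were tested, and 19 were higher and 0 lower by at least 1 log2 unit. For Matrigel against aggregates, 2 were higher with the replicate block, after averaging the probe sets of a gene and among genes above the median level, and 10 were lower by at least 1 log2 unit. For 14B3 against 9A1, 1 was higher by at least 1 log2 unit, and the number lower was 3 with the replicate block and 2 after quantile normalisation; for the Matrigel response, 1 remained called among genes above the median level. Leaving out each array in turn gave 20 to 23 higher and 0 lower for Matrigel, 31 to 34 higher and 0 to 2 lower for aggregates, and 1 to 3 higher and 16 to 21 lower for Matrigel against aggregates. It gave 3 to 8 higher and 1 to 2 lower for the lines, and 0 to 1 and 0 to 2 higher for the aggregate and Matrigel responses. The replicate block lost none of the 89 calls. Causes were not tested except where fewer genes or arrays were in the fit. Dim probe sets and 2 arrays per group limit small changes.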
